A study of Homo sapiens with 2 samples.

Results

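The genes described here are 40 genes of antioxidant defence under and around the transcription factor NRF2. They were taken by gene name from a table of transcripts in which 49900 gene names have annotated or assembled isoforms, and a gene's value was the sum over its isoforms in FPKM, a count of fragments per kilobase and per size of the library. All 40 were found, and all 40 reached 1 FPKM in at least 1 library, the limit used for a measured gene, as did 17965 genes in all. The RNA came from WI-38, a well-known diploid fibroblast line of human lung grown in DMEM, with no genetic change and no drug named in the labels. The young group was at population doubling level 20 and the senescent group, brought there by replicative senescence, at level 52. Each group holds 1 library of total RNA, so replicate error is unknown and no test was made. Every difference below is a difference between 2 libraries, young given first and senescent second. A gene was called higher or lower where the log2 ratio of senescent over young, after 1 FPKM was added to both, reached 1 in size, which is 2-fold on that scale. Where a fold is given it is FPKM over FPKM with nothing added.

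NRF2, encoded by NFE2L2, is held in the cytoplasm and marked for degradation by KEAP1 through a cullin ubiquitin ligase. Oxidants and electrophiles modify cysteines of KEAP1, NRF2 then accumulates, pairs with small MAF proteins and binds antioxidant response elements in its target genes. Products of those targets make glutathione, serve the thioredoxin system, reduce quinones, break haem down and supply NADPH. From NADPH the glutathione peroxidases and peroxiredoxins draw their reducing power. Superoxide dismutases turn superoxide into hydrogen peroxide, which catalase, glutathione peroxidases and peroxiredoxins remove. Much of this control acts on the NRF2 protein, which RNA does not show.

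The values of low transcripts step by whole fragments, and from these steps the libraries were estimated to hold an effective 15900000 (young) and 14800000 (senescent) fragments. At a length of 1200 bases 1 fragment is then worth 0.0629 and 0.0676 FPKM. The fibroblast label was checked against markers. Of 8 fibroblast markers all were measured, with summed levels of 9985 against 5686 FPKM, and COL1A1, COL1A2 and COL3A1 among them were called lower. The other 5 lay within 2-fold, with log2 ratios of -0.15 for VIM, -0.16 for PDGFRA, -0.17 for PDGFRB, -0.10 for S100A4 and 0.44 for THY1. The part of the difference in the collagen markers in the results below was not tested. The blood cell markers summed to 1.19 against 2.21 FPKM, with CD3E at 0 in both libraries. The epithelial markers summed to 16.8 against 9.90 FPKM, with KRT5 and SFTPC at 0 in both. Most came from KRT19, called lower at 11.5 against 1.37 FPKM, and KRT18, called higher at 2.84 against 6.75 FPKM. The endothelial markers in the table summed to 18.9 against 8.70 FPKM, nearly all of it TEK, with CDH5 at 0 in both. In such bulk samples, fewer cells with a transcript and less of it in each cell cannot be told apart.

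Of the 40 genes, 13 were called higher in the senescent library and 4 lower, while 23 lay within 2-fold. Over all measured genes 6.65% were called higher and 8.58% lower, against 32.5% and 10% of the 40. Among genes that reach 5 FPKM, as all of the 40 but MGST2 do, 7.04% were higher and 8.54% lower. In FPKM 30 of the 40 were higher in the senescent library and 10 were lower, where of 17965 measured genes 7774 were higher and 10191 lower. The median log2 ratio was 0.49, with a median of -0.10 over all measured genes. The genes called higher were SLC7A11, GCLM, NQO1, TXNRD1, SRXN1, PRDX1, PRDX6, GPX3, GSTM3, GSTO1, MGST1, TALDO1 and ME1, and those called lower were SOD2, SOD3, GPX4 and GPX7. The members nearest to the limit were NQO1 at 1.01 and GPX4 at -1.03 inside it, and TXN at 0.94 outside it. The range ran from -2.54 for SOD3 to 2.63 for GPX3.

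**Figure D1:**
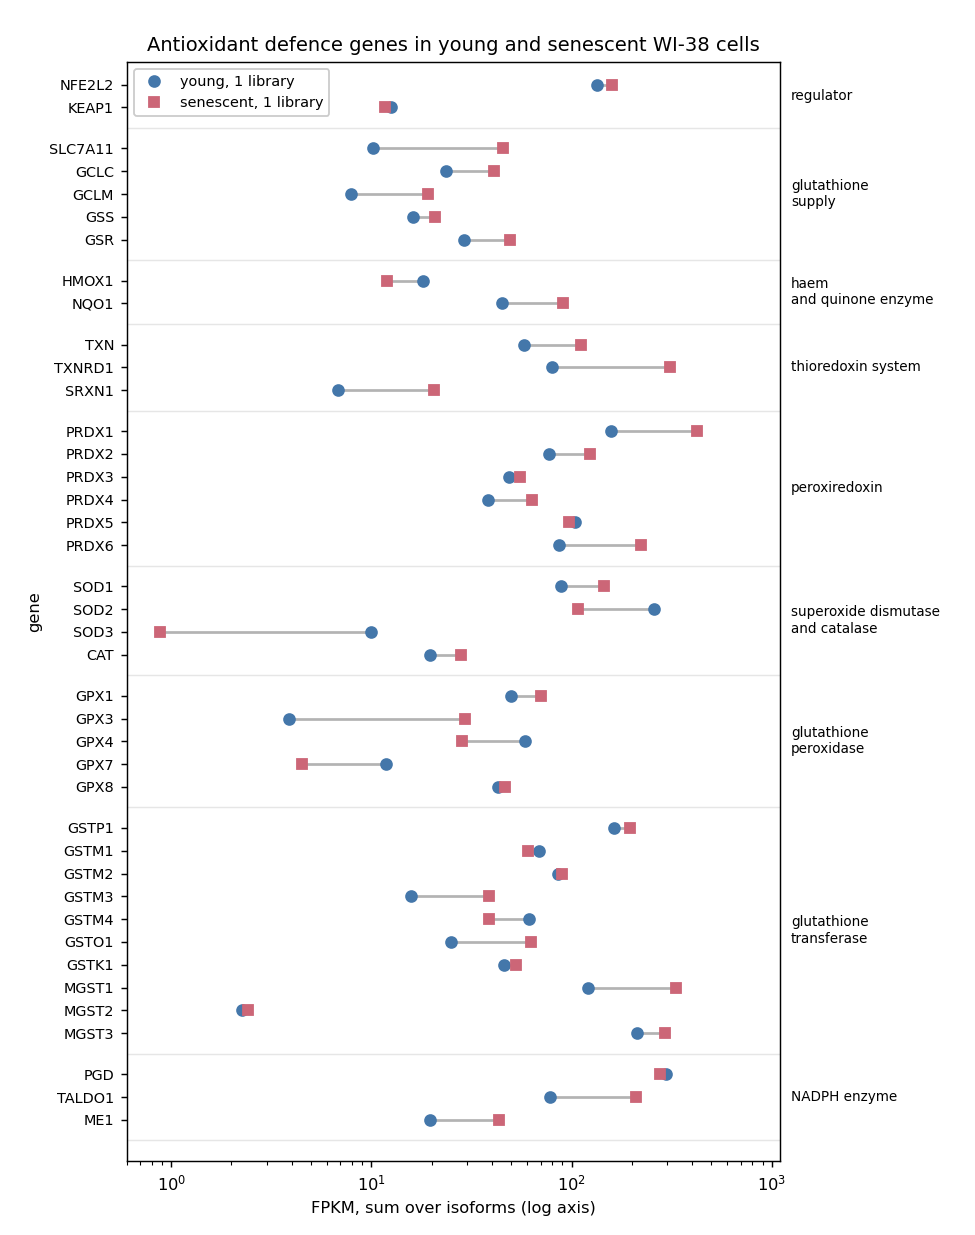
Summed FPKM of each of the 40 genes (log axis) for young cells (circles) and senescent cells (squares), 1 library each, grouped by role. SLC7A11, TXNRD1 and GPX3 lie farthest to the right in the senescent library relative to the young one, and SOD3 farthest to the left, from 9.97 to 0.881 FPKM.

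The letters of the antioxidant response element were looked for in the promoters, because many of these genes stood higher together. The motif searched was TGACNNNGC on both strands, in windows from 250 bases before to 50 bases after the start of a gene as listed by RefSeq on GRCh38.p14, a newer build than the hg19 of the data. Its first letters overlap with the AP-1 motif TGACTCA, which 2 of the 14 matches in these genes hold in full. A window was at hand for 32 of the 40 genes. The genes GSR, GSS, HMOX1, MGST2, PRDX1, PRDX6, SLC7A11 and SOD1 were not matched. A match was present in 9 of the 32 (28.1%), in 16.1% of all genes of that table and in 19.3% of the measured genes among them. Of 10 genes called higher with a window 5 had a match, of 4 called lower 0, and of 18 within 2-fold 4. The 32 genes have 43 windows, because some have several starts, and a match in any window of a gene was counted. For MGST1, among the 5, the only match lies 31 bases after a start, and the windows of its other starts have none. A match of letters is a description and not a binding site, and no match says only that these letters are not in that window.

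The 250 bases before the start are shown for 3 genes called higher that have a match wholly upstream, with its letters in capitals and the sequence read 5′ to 3′ along the gene. The capitals begin 34 bases before the start in GCLM, 137 in ME1 and 99 in TXNRD1. These are not the only matches of ME1 and TXNRD1. ME1 has another 12 bases after its start, and TXNRD1 has one that begins 8 bases before this start and runs past it, neither of them in capitals here, and one 102 bases before another of its starts. The regions are chr1:93909431-93909680 on the minus strand for GCLM, chr6:83431052-83431301 on the minus strand for ME1 and chr12:104215529-104215778 on the plus strand for TXNRD1, all on GRCh38.p14.
GCLM: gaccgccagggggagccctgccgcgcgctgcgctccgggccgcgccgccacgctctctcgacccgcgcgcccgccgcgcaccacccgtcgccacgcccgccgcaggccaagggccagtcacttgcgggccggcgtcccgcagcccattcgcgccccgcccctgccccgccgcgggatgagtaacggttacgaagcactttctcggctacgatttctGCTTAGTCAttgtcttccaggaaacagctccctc
ME1: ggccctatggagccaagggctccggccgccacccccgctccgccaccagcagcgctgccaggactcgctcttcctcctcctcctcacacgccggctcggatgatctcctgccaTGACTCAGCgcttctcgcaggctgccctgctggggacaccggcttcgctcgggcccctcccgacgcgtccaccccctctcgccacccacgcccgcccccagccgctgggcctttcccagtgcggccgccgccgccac
TXNRD1: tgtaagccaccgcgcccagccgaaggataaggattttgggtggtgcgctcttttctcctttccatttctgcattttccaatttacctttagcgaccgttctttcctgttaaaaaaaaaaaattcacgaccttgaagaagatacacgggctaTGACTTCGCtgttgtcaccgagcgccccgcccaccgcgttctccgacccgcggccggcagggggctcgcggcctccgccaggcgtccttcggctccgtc

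Shorter stretches around the match show that the same letters also stand before genes that differed little. GSTO1, called higher, has matches 226 and 161 bases before its start. GSTP1 and KEAP1, both within 2-fold, have matches 66 bases and 54 and 31 bases before theirs, and the letters of GSTP1 are those of ME1. The stretches, with the match in capitals, are chr10:104254656-104254684 and chr10:104254721-104254749 for GSTO1, chr11:67583736-67583764 for GSTP1, and chr19:10502807-10502835 and chr19:10502784-10502812 for KEAP1, which is on the minus strand.
GSTO1 far: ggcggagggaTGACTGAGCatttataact
GSTO1 near: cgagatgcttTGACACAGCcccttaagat
GSTP1: gccggcgccgTGACTCAGCactggggcgg
KEAP1 far: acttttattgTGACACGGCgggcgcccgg
KEAP1 near: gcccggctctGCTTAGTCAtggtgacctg

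The regulators themselves differed little. NFE2L2 (hg19 chr2:178092323-178257425) was at 134 against 159 FPKM, log2 ratio 0.25, and none of its 10 measured isoforms was called. KEAP1 was at 12.5 against 11.7 FPKM, log2 ratio -0.09. Of its 2 isoforms KEAP1-202 held most of this, at 12.5 against 10.2 FPKM, and the minor one, of 2592 bases, was called higher at 0.000165 against 1.49 FPKM. The RNA of the factor was thus about as abundant in both libraries, and its protein was not measured. Among 18 partners and controllers of NRF2 outside the 40 genes, 1 was called higher and 1 lower, with a median of -0.00. CUL3, the cullin that works with KEAP1, was at 64.9 against 64.7 FPKM. SQSTM1, the autophagy receptor that can sequester KEAP1, was at 230 against 348 FPKM, log2 ratio 0.60. The exception on the lower side was BACH2, a transcription repressor related to BACH1, at 8.05 against 0.307 FPKM. BTRC, a substrate receptor of another ubiquitin ligase that acts on NRF2, was called higher at 16.9 against 38.7 FPKM, from isoforms whose status in the file is FAIL. NFE2L3, a relative of NFE2L2, was at 21.0 against 12.03 FPKM.

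The genes of glutathione supply all stood higher in the senescent library, and 2 of the 5 were called. SLC7A11 (chr4:139085251-139163503), the subunit of the antiporter that brings in cystine, was at 10.2 against 45.7 FPKM, log2 ratio 2.05 and 4.46-fold. GCLM (chr1:94350761-94374966), the modifier subunit of glutamate-cysteine ligase, was at 7.93 against 19.3 FPKM, log2 ratio 1.18. The catalytic subunit of that enzyme, GCLC, was at 23.5 against 40.8 FPKM, log2 ratio 0.77, so the modifier subunit passed the limit and the catalytic subunit did not. GSS, which adds glycine in the last step of glutathione synthesis, was at 16.1 against 20.7 FPKM. GSR, which returns oxidised glutathione to its reduced form, was at 28.9 against 49.1 FPKM, log2 ratio 0.74. SLC3A2, which pairs with SLC7A11 at the membrane, is outside the 40 genes and was at 61.5 against 89.8 FPKM, named here after its values were seen.

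HMOX1 and NQO1, both commonly used as readouts of NRF2 activity, went in opposite directions. HMOX1, which breaks haem down, was at 18.2 against 12.01 FPKM, log2 ratio -0.56, within 2-fold. NQO1 (chr16:69740899-69760854), which reduces quinones, was at 44.7 against 91.0 FPKM, log2 ratio 1.01, just inside the limit.

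Of the 3 genes of the thioredoxin system 2 were called higher. TXNRD1 (chr12:104609557-104744061), a selenoprotein that reduces thioredoxin with NADPH, was at 80.1 against 309 FPKM, log2 ratio 1.93 and 3.86-fold. SRXN1, sulfiredoxin, which repairs over-oxidised peroxiredoxins, was at 6.82 against 20.5 FPKM, log2 ratio 1.46. TXN, thioredoxin itself, was at 57.8 against 112 FPKM, log2 ratio 0.94, just outside the limit. The reductase thus had the largest ratio of the 3 and its substrate the smallest.

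The 6 peroxiredoxins, which remove peroxides with cysteines reduced mainly by thioredoxin, were divided by size of the difference rather than by direction. PRDX1 (chr1:45976708-45988719), a cytosolic form, had the highest level of the 6 in the senescent library, at 158 against 422 FPKM, log2 ratio 1.41. PRDX6 (chr1:173446405-173457946), which uses glutathione in place of thioredoxin, was at 86.4 against 223 FPKM, log2 ratio 1.36. These were the members called. PRDX2, cytosolic like PRDX1, was at 76.8 against 124 FPKM, log2 ratio 0.69, and PRDX4, of the endoplasmic reticulum, was at 38.2 against 63.4 FPKM, log2 ratio 0.72. The mitochondrial PRDX3 was at 48.8 against 55.3 FPKM. PRDX5, found in mitochondria, peroxisomes and cytosol, was at 105 against 97.1 FPKM. The forms with a mitochondrial location thus had the ratios closest to 0.

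Superoxide dismutases differed by form. SOD1, the cytosolic copper and zinc enzyme, was at 88.7 against 145 FPKM, log2 ratio 0.71, within 2-fold. SOD2 (chr6:160100096-160183561), the manganese enzyme of mitochondria, was the most abundant of them in the young library and was called lower, at 257 against 108 FPKM, log2 ratio -1.24. SOD3 (chr4:24797085-24802464), the secreted enzyme of the extracellular matrix, was at 9.97 against 0.881 FPKM, log2 ratio -2.54 and 11.3-fold lower. From its single isoform of 1526 bases these levels correspond to an estimated 210 and 17.3 fragments, which are estimates because whole fragments were not recovered for annotated genes. CAT, catalase, which removes hydrogen peroxide in peroxisomes, was at 19.6 against 28.0 FPKM, log2 ratio 0.49.

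Glutathione peroxidases went both ways. GPX3 (chr5:150400124-150408554), the secreted plasma form, had the highest ratio of the 40 genes, at 3.90 against 29.4 FPKM, log2 ratio 2.63 and 7.53-fold. GPX4 (chr19:1103936-1106786), which reduces lipid peroxides in membranes and protects against ferroptosis, was called lower at 58.8 against 28.3 FPKM, log2 ratio -1.03, and 4 of 12 other settings did not keep that call. GPX7 (chr1:53068044-53074723), a form of the endoplasmic reticulum that carries cysteine in place of selenocysteine, was at 11.9 against 4.53 FPKM, log2 ratio -1.22. GPX8, the other form of that compartment, was at 43.1 against 46.8 FPKM and thus nearly equal. GPX1, the cytosolic form, was at 49.7 against 70.3 FPKM. Its processed copy GPX1P1 is listed at 21.5 against 26.4 FPKM, and reads of such near-identical copies cannot be assigned with certainty.

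Of 10 glutathione transferases, which join glutathione to electrophiles, 3 were called higher and 0 lower. MGST1 (chr12:16500076-16762193), a membrane-bound form that also reduces lipid peroxides, was at 121 against 333 FPKM, log2 ratio 1.46. Isoforms under 300 bases, for which FPKM is least certain, gave 60.3 and 165 FPKM of those sums, and without them the log2 ratio was 1.47. GSTO1 (chr10:105995114-106027217), of the omega class, was at 24.9 against 62.6 FPKM, log2 ratio 1.30, and GSTM3 (chr1:110276554-110284384), of the mu class, was at 15.8 against 38.8 FPKM, log2 ratio 1.25.

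The other transferases lay within 2-fold. GSTP1, the pi-class form, had a sum of 164 against 196 FPKM, and GSTK1, of mitochondria and peroxisomes, was at 46.3 against 52.7 FPKM. The isoforms of GSTP1 annotated as coding held 13.4% and 10.9% of its sum, at 21.9 against 21.4 FPKM. Its isoforms under 300 bases gave 32.2 and 46.0 FPKM. GSTM1 was at 68.6 against 60.7 FPKM, GSTM2 at 86.1 against 89.9 FPKM and GSTM4 at 61.1 against 38.8 FPKM. These mu-class genes are neighbours on chromosome 1 with near-identical sequences, so the split of reads among them is uncertain. The sum of GSTM1, GSTM2, GSTM4 and their neighbour GSTM5 was 223 against 192 FPKM, log2 ratio -0.22, whereas GSTM3, read from the opposite strand, stood higher. MGST2 was the lowest of the 40 genes in the senescent library apart from SOD3, at 2.27 against 2.41 FPKM. MGST3 was at 213 against 292 FPKM, and all 13 of its isoforms have the status FAIL, the only such gene among the 40.

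Of 3 enzymes that serve the supply of NADPH, 2 were called higher. TALDO1 (chr11:747329-765024), transaldolase of the non-oxidative pentose phosphate pathway, was at 77.8 against 209 FPKM, log2 ratio 1.41. ME1 (chr6:83920108-84140797), cytosolic malic enzyme, which makes NADPH from malate, was at 19.6 against 43.5 FPKM, log2 ratio 1.11. PGD, a dehydrogenase of the oxidative branch, was among the 40 genes with the highest sums and was nearly equal at 297 against 277 FPKM, log2 ratio -0.10. Its isoforms annotated as coding held 34.8% and 30.8% of that sum, at 103 against 85.6 FPKM, log2 ratio -0.27.

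**Figure D2:**
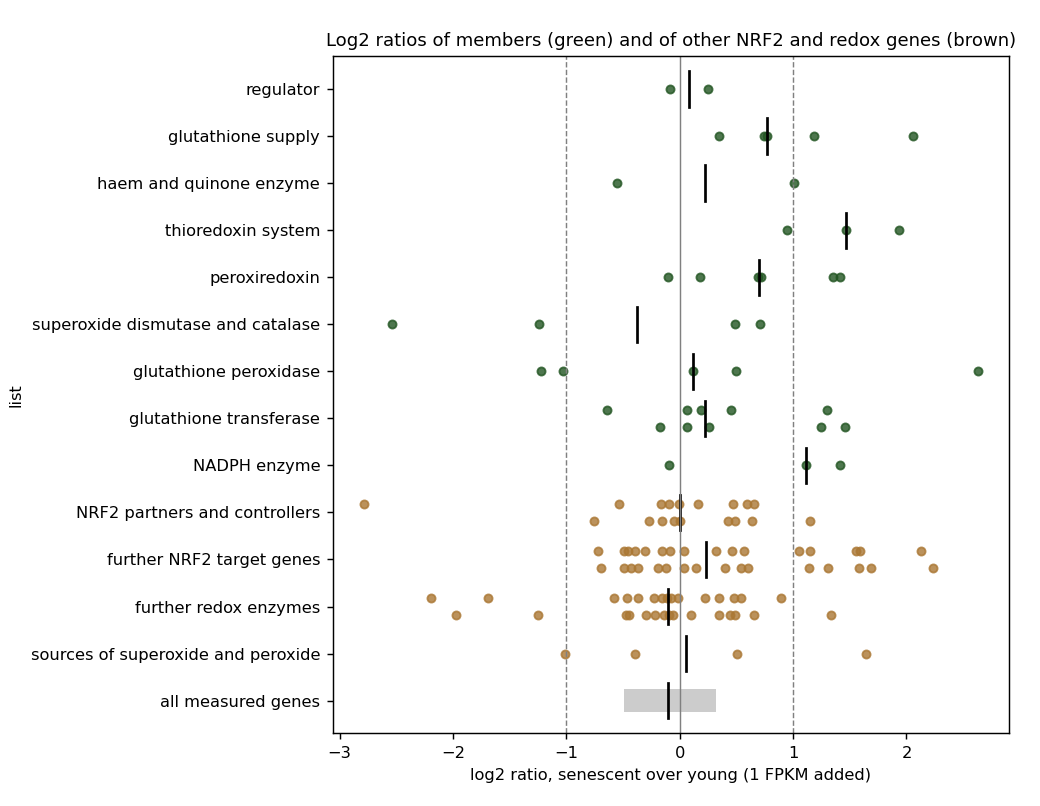
Log2 ratio of senescent over young (1 FPKM added) for each measured gene, with the 40 genes by role in green and 4 lists of other NRF2 and redox genes in brown. Black bars are medians, the grey box spans the quartiles of all measured genes (-0.49 to 0.32), and dashed lines mark 2-fold. All genes of glutathione supply and of the thioredoxin system lie to the right of 0, while the superoxide dismutase and glutathione peroxidase rows spread to both sides.

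Outside the 40 genes, 105 other NRF2 and redox genes were read as 4 lists. Of the 84 measured, 13 were called higher and 6 lower, 15.5% and 7.14%, with a median of -0.01. The list of further NRF2 target genes held most of those called higher, 10 of 32 measured (31.2%) with 0 lower and a median of 0.23. AKR1B1, an aldose reductase, was at 188 against 826 FPKM, log2 ratio 2.13. AKR1C1, of the same superfamily and with close paralogs, was at 4.43 against 16.5 FPKM. FTL, the light chain of the iron store ferritin, was at 3128 against 6959 FPKM, log2 ratio 1.15, whereas the heavy chain FTH1 was at 904 against 1195 FPKM, log2 ratio 0.40. TXNIP, which the count of 10 includes, was called higher at 24.9 against 120.6 FPKM. It binds and inhibits thioredoxin, unlike the detoxifying and iron-storing members, and whether NRF2 raises it was not tested.

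In the list of further redox enzymes 1 of 30 was called higher and 4 lower, 3.33% and 13.3% where all measured genes had 6.65% and 8.58%, and its median of -0.10 was that of all measured genes. The one called higher is SEPW1, a small selenoprotein, at 15.4 against 40.2 FPKM, and GSTM5 at 7.41 against 2.54 FPKM is among the 4, both named after their values were seen. SEPP1, a secreted selenoprotein, was at 6.67 against 0.672 FPKM and CYGB, a fibroblast globin, at 8.88 against 1.51 FPKM. PTGES, a prostaglandin synthase of the same superfamily as MGST1, was at 3.08 against 0.260 FPKM. The abundant members lay within 2-fold. GLRX, glutaredoxin, was at 156 against 292 FPKM and PARK7 at 156 against 148 FPKM. Of 14 genes for sources of superoxide and peroxide only 4 were measured. MAOB, a monoamine oxidase, was called lower at 1.01 FPKM in young cells, and it is listed at 0 in senescent ones. MAOA was at 1.85 against 1.17 FPKM, and CYBA, the shared membrane subunit of NADPH oxidases, at 5.19 against 7.79 FPKM.

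The isoforms behind these sums were read next, since a sum can hide opposite parts. The 40 genes had 309 isoforms, of which 211 reached 1 FPKM. Of these 211, 65 were called higher and 21 lower, where of all 48676 measured isoforms 5647 (11.6%) and 6390 (13.1%) were. The authors' deposited table marks as significant 22 isoforms from 11 of the genes, which there means a q-value of at most 0.1 in a test on 1 library a group. Of these 21 are higher and 1 is lower. That is 9.21% and 0.439% of the 228 isoforms of status OK, where 1.66% and 2.03% of all isoforms of that status are so marked in the authors' deposited table. The one marked lower is SOD3-001, with a q-value of 0.00100 in the authors' deposited table.

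**Figure D3:**
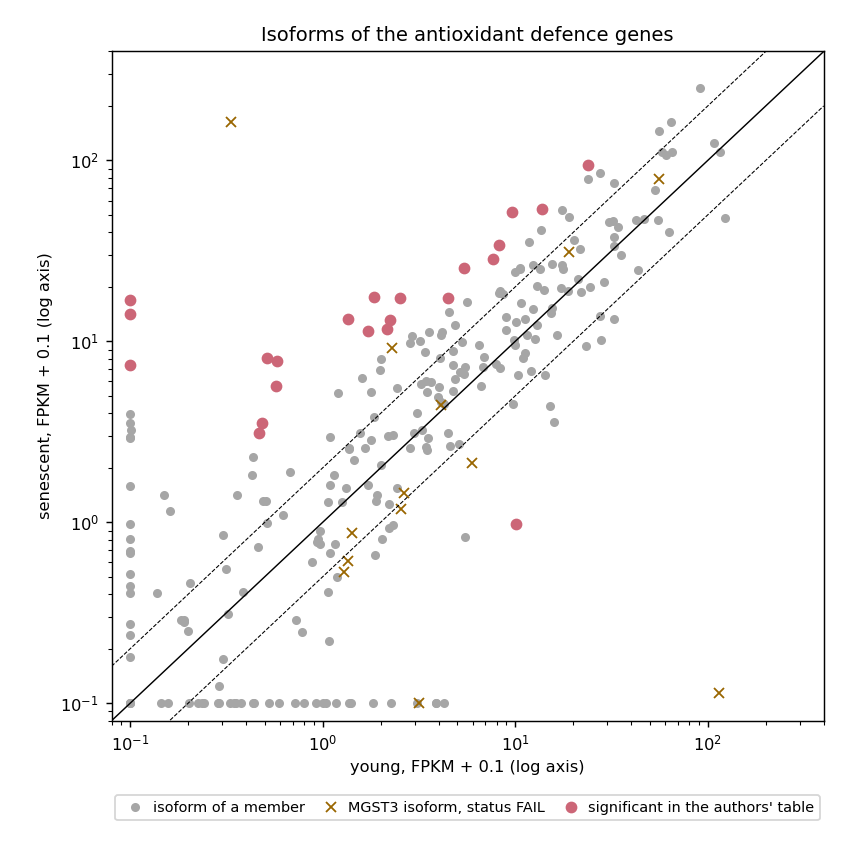
FPKM of each isoform of the 40 genes above 0 in a library, young against senescent, both plus 0.1 on log axes, with the diagonal drawn solid and 2-fold dashed. Isoforms marked significant in the authors' deposited table are red and the MGST3 isoforms of status FAIL are crosses. All but 1 of the 22 red points lie above the upper dashed line.

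In TXNRD1 the difference was spread over many isoforms. Of 15 measured, 10 were called higher and 0 lower, and 7 are marked significant in the authors' deposited table. Its most abundant isoform, of 3701 bases, was at 23.9 against 94.3 FPKM. The long isoform TXNRD1-002 was at 5.31 against 25.2 FPKM, with a q-value of 0.0104 in the authors' deposited table. TXNRD1-017, of 3808 bases, was at 0.415 against 8.02 FPKM and has the lowest q-value of the 22 in the authors' deposited table, 3.871e-05.

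SLC7A11 has 2 isoforms, and both were higher. The long coding isoform SLC7A11-001, of 9645 bases, was at 8.17 against 34.0 FPKM. SLC7A11-002, of 797 bases and annotated as a target of nonsense-mediated decay, was at 2.07 against 11.7 FPKM. In GPX3 the leading isoform GPX3-201 was at 2.42 against 17.2 FPKM, and GPX3-004 is listed at 0 in young cells and 3.88 FPKM in senescent ones. SOD2 showed the reverse, with 7 of 12 measured isoforms called lower and 0 higher. SOD2-009, of 507 bases, was at 123 against 47.9 FPKM, and SOD2-007, of 991 bases, at 27.8 against 10.1 FPKM.

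The isoforms of the other called genes mostly shared the direction of the sum. Of MGST1, 9 of 14 measured isoforms were called higher and 0 lower, among them the intron-retaining MGST1-011, at 0 against 16.8 FPKM. Of TALDO1, 8 of 10 were called higher and 0 lower, with TALDO1-010 at 7.60 against 28.6 FPKM. In GSTO1 the assembled isoform of 2872 bases nearest to GSTO1-202 was at 1.62 against 11.3 FPKM, with a q-value of 0.00637 in the authors' deposited table. In PRDX6 the coding isoform PRDX6-001 was at 17.4 against 53.1 FPKM, and the more abundant PRDX6-003, annotated without a coding frame, at 55.7 against 145 FPKM. The coding share of PRDX6 was 20.1% and 23.8% of its sum.

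The genes nearest to the limit rested on part of their isoforms. In NQO1 the isoform NQO1-001, of 2765 bases, was at 18.8 against 48.6 FPKM, while the similarly abundant NQO1-007, of 924 bases, was nearly equal at 21.1 against 22.1 FPKM. NQO1-004, at 4.36 against 17.3 FPKM, has a q-value of 0.0806 in the authors' deposited table. In GPX4 the leading form, of 916 bases, was within 2-fold at 43.1 against 24.8 FPKM, and the call of the sum came with the shorter form of 770 bases, at 15.7 against 3.50 FPKM. GPX7-001, the leading isoform of GPX7, was at 9.60 against 4.41 FPKM, and with 1 FPKM added its log2 ratio of -0.97 fell just short of the limit. By contrast, the leading isoforms of PRDX1 were each past it, PRDX1-002 at 91.2 against 251 FPKM and PRDX1-003 at 64.2 against 162.6 FPKM. In GCLM the long form of 4744 bases was at 3.28 against 8.58 FPKM, and in ME1 the leading ME1-203 was at 12.2 against 26.3 FPKM. SRXN1-001, the coding isoform of SRXN1, was at 2.81 against 10.6 FPKM, and GSTM3-001 at 4.41 against 14.4 FPKM.

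For several members the sum and the isoforms did not say the same. GCLC, GSTM2, MGST3 and PGD each had isoforms called higher and isoforms called lower. In PGD, 3 were higher and 3 lower. PGD-201 was at 0 against 14.1 FPKM and PGD-009 at 2.14 against 13.1 FPKM. The most abundant isoform, PGD-011 of 506 bases, was at 115.6 against 111.8 FPKM. Both PGD-201 and PGD-009 are marked significant in the authors' deposited table, although the sum for PGD was nearly equal.

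In MGST3 a pair of isoforms of nearly the same length changed places. MGST3-011, of 678 bases, was at 0.236 against 162.7 FPKM, and MGST3-002, of 680 bases, at 114 against 0.0141 FPKM. Both carry the status FAIL. In GSTM2, GSTM2-002 was at 0 against 7.32 FPKM, beside more abundant isoforms that were nearly equal. In PRDX4, PRDX4-005 was at 0.476 against 7.67 FPKM, and over coding isoforms alone the log2 ratio of the gene was 1.03 and past the limit. In GCLC the isoforms annotated as coding made up 37.3% of the sum in young cells and 26.7% in senescent ones, and their own log2 ratio was 0.29. The intron-retaining GCLC-012 was at 3.45 against 11.2 FPKM and GCLC-011, of the same kind, at 5.21 against 9.87 FPKM.

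**Figure D4:**
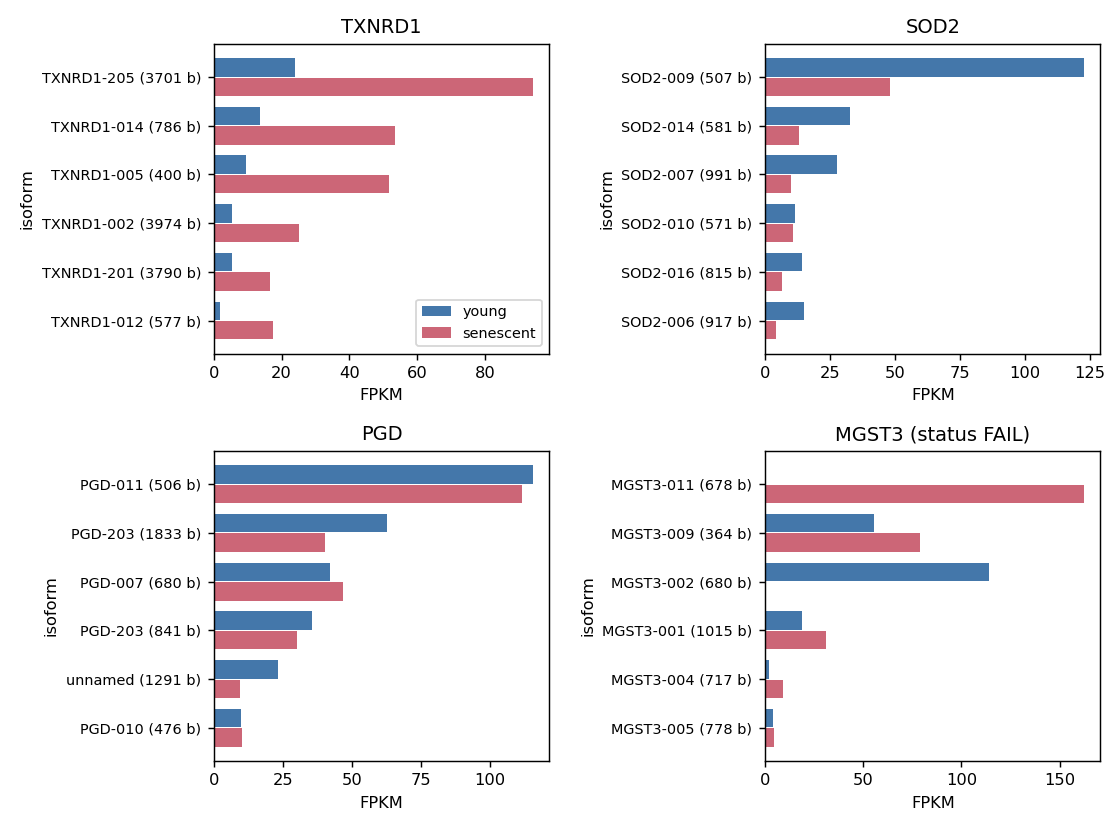
FPKM of the 6 most abundant isoforms of TXNRD1, SOD2, PGD and MGST3 in young and senescent cells (1 library each, lengths in bases). All bars of TXNRD1 are longer in the senescent library and those of SOD2 are shorter or nearly equal, whereas PGD is mixed and MGST3-011 and MGST3-002 trade places.

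Transcripts assembled from reads inside introns were not part of the gene sums and give a separate reading of the same genes. Such transcripts were present for 8 of the 40 genes. Over all 4898 genes with measured intronic transcripts the median log2 ratio of their sum was -0.67, with 3.21% at least 2-fold higher and 29.1% lower. For SLC7A11, 6 of 7 intronic transcripts were higher in the senescent library and their sum was at 7.93 against 18.9 FPKM, log2 ratio 1.16. For TXNRD1, 4 of 5 were higher, with a sum at 34.3 against 53.7 FPKM, log2 ratio 0.63. For ME1, 13 of 19 were higher, with a log2 ratio of 0.31. The single intronic transcripts of NQO1 and SRXN1 had log2 ratios of 0.69 and 0.09. SOD2 had the opposite pattern, as 0 of 6 were higher and the sum was at 14.0 against 5.65 FPKM, log2 ratio -1.18, close to the -1.24 of its isoforms. PRDX3 had 1 intronic transcript, at 10.9 against 2.11 FPKM and so among the 29.1% at least 2-fold lower, while its isoforms were nearly equal. The 2 of MGST2 summed to 5.61 against 4.29 FPKM. The strand of the reads is not given in the sources used here, so transcripts from the opposite strand cannot be told apart.

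**Figure D5:**
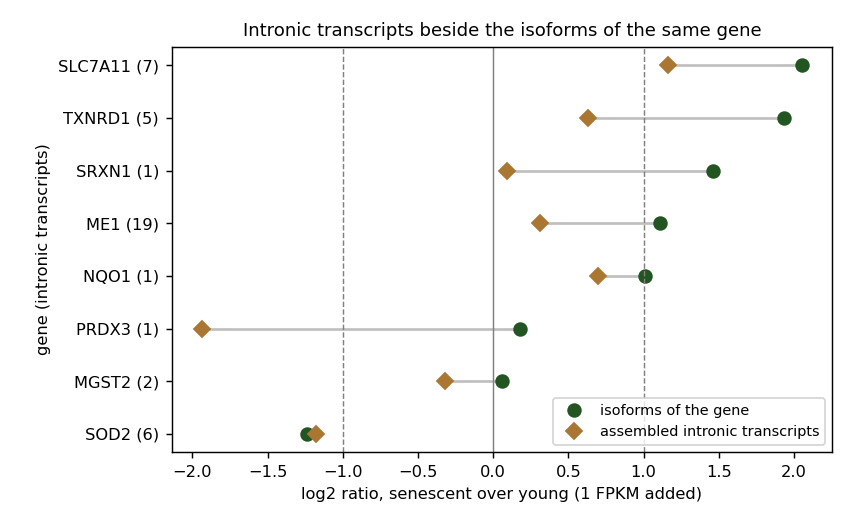
Log2 ratio of senescent over young (1 FPKM added) of the summed isoforms (circles) and of the summed intronic transcripts (diamonds) for the 8 genes that have both, with the number of intronic transcripts in brackets. SLC7A11 and SOD2 keep a difference past 2-fold in their introns, in opposite directions, and in PRDX3 only the intronic transcript is past 2-fold.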

How the data were processed

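Total RNA of WI-38 cells was sequenced from 1 young and 1 senescent library. Per the labels' protocols, cDNA was amplified with a NuGEN Ovation kit and ribosomal RNA was removed. Per the submitters' processing notes, the build was hg19 and the tools were Cuffdiff, Cufflinks 2.0.2 and TopHat2 2.0.6. Strand and annotation version are not given in the sources used here. The authors deposited FPKM per transcript, and their p-value and q-value per transcript, per the file headers. The column named for old cells was taken as the senescent sample, because the other is named young.

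From these values gene sums were computed over 3 isoform classes (complete matches to the annotation, further assembled isoforms, contained transcripts) with pandas 2.3.3, and log2 ratios with a pseudocount of 1 FPKM. A gene name shared by several loci gave 1 sum. Measured meant 1 FPKM in at least 1 library, and called meant 2-fold. With 1 library a group no test was made. Amplification, and FPKM of overlapping or very short isoforms, can shift values. Transcript length in bases came from the deposited file. Depth was read from unnamed intergenic loci with 1 transcript, with length reduced by 200 bases. Of the low values tried, 2857 young and 3459 senescent, 83.0% and 85.1% were whole within 0.05. At a depth fixed beforehand chance gives 10%, but the depth was chosen from a range to make this share largest. Depths far below those found were not tried, and a true depth that divides evenly into them would also give whole values. The code that makes the calls and reads the depth was tested on simulated data, which checks the code and not the differences. Named genes are the 40, those marked as named after seeing values, and, of each other list, the 3 of largest ratio and up to 2 others of highest level, apart from a few that are not reported here. The genes and lists were chosen with earlier results of these data known. The settings tried besides these numbered 10, with 2 more chosen after seeing the data. PECAM1, a planned marker, was not analysed here.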

Additional observations from a re-analysis of the deposited data

How the results depend on the processing

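All 12 alternative settings kept a majority of the 40 genes above 0, with medians of the log2 ratio of 0.51 at a pseudocount of 0.1 FPKM, 0.46 at 5 FPKM, 0.52 with upper-quartile scaling, 0.58 with median-ratio scaling, 0.50 over all transcript classes, 0.59 with the highest isoform and 0.51 over coding isoforms, against 0.49. No gene changed the sign of a call. Of the 13 genes called higher 9 kept the call in all 12 settings, and of the 4 called lower 2 did, SOD2 and SOD3. GPX4 kept it in 8, GPX7, GCLM and ME1 in 10, and NQO1 and GSTO1 in 11. With a pseudocount of 5 FPKM, or with the highest isoform, 2 of the 40 were called lower in place of 4. At that pseudocount 8 of the other NRF2 and redox genes were higher and 3 lower in place of 13 and 6, and over all genes 464 were higher and 499 lower in place of 1195 and 1541. A limit of 5 FPKM left 751 and 911 over all genes (7.04% and 8.54%) because fewer genes were tested, and a pseudocount of 0.1 FPKM gave 2492 lower. Coding isoforms alone, a setting chosen after seeing the data, gave 977 lower over fewer genes. Median-ratio scaling moved the median over all genes from -0.10 to -0.03, brought TXN to 1.03 and took GPX4 to -0.95. MGST3 came to 7.05 with its highest isoform, which the swap between a pair of isoforms sets. MGST2 was not measured at 5 FPKM, GCLM not from complete matches alone and MGST3 not from status OK alone. No paired analysis was possible because each group holds 1 library. Depth limits mostly the low members, SOD3, MGST2 and GPX3, and no spread between cultures can be given.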
